A study of Mus musculus with 2 samples.

Results

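The genes described here encode synaptic cell adhesion molecules, the surface proteins that join the axon side of a synapse to the dendrite side. They were chosen by name, as 49 genes in 14 families, among 55536 genes in the deposited gene tables, and all 49 symbols were found once each. RNA came from 1 group of mice and 2 libraries, called replicates 1 and 2. Both were poly(A)+ RNA-seq of the left cerebral cortex at an age of 6 months, strain B6NCrl (a C57BL/6 substrain), with no treatment or allele named, from 20 ng of RNA cut and tagged by Nextera transposase. The labels called the tissue male in one field and gave the sex as not collected in another, and both libraries carried the same donor entry with separate biosample records. No other label says that the animals differed, so spreads and p-values below measure only the difference between these libraries, which may be technical. Where a pair of values stands together, it gives replicate 1 and replicate 2, and SD is over n = 2 libraries.

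At a synapse, presynaptic neurexins and receptor-type protein tyrosine phosphatases of the LAR family bind many postsynaptic partners, among them neuroligins, LRRTM, SLITRK and SALM proteins, Il1rapl1 and calsyntenins. A further set of contacts runs between latrophilins, which are adhesion G protein-coupled receptors, and teneurins or FLRT proteins. Contactins, contactin-associated proteins and SynCAMs (the Cadm genes) are immunoglobulin-type or related adhesion molecules of axons, glia and synapses. Partner choice in neurexins, neuroligins, LAR-type phosphatases, latrophilins and teneurins depends on short cassette exons that are spliced in or out of the coding sequence, so the transcript matters as well as the gene.

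The exons below are shown because each lies at a site known to tune partner binding and had a measured inclusion in the cortex. Sequences are from the GENCODE M21 transcripts on mm10, read 5′ to 3′ in the sense of the gene. Capitals mark the cassette exon and lower case marks 15 bases of the exon on each side. The neurexin splice site 4 exon shown lies at chr12:90199147-90199236 (Nrxn3, plus strand). The site A exons of neuroligins lie at chr3:25920178-25920237 (Nlgn1, minus strand), chr11:69830563-69830613 (Nlgn2, minus strand), and chrX:101303072-101303131 and chrX:101307075-101307134 (Nlgn3, plus strand).
Nrxn3 splice site 4 exon: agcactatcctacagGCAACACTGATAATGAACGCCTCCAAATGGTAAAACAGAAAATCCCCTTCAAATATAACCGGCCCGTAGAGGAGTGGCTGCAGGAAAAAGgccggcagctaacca
Nlgn1 site A exon: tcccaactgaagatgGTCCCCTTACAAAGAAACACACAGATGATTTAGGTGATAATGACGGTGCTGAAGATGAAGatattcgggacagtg
Nlgn2 site A exon: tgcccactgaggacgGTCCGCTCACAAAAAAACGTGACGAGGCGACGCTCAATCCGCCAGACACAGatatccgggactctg
Nlgn3 first site A exon: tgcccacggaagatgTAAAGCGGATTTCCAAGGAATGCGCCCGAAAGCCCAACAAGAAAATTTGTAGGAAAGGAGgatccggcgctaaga
Nlgn3 second site A exon: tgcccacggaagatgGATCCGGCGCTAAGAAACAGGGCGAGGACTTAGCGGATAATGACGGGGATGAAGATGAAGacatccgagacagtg
The Nrxn3 exon is 90 bases long, wholly coding and a multiple of 3 bases, as were all cassette exons counted below.

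Shorter inserts came from Ptprd, the latrophilins and the teneurins. In Ptprd, on the minus strand, the exons at chr4:76139294-76139302 and chr4:76138556-76138573 make up mini-exon A in an immunoglobulin domain, and the exon at chr4:76135545-76135556 is mini-exon B, between immunoglobulin domains. Latrophilin inserts at chr8:83926262-83926276 (Adgrl1, plus strand), chr3:148860427-148860438 (Adgrl2, minus strand) and chr5:81509724-81509738 (Adgrl3, plus strand) fall between the lectin and olfactomedin domains, where an insert is known to weaken teneurin binding in latrophilin 1. The teneurin inserts are at chrX:42648394-42648414 (Tenm1, minus strand), chr8:48287133-48287153 (Tenm3, minus strand) and chr7:96854717-96854737 (Tenm4, plus strand), in the part that encodes the beta-propeller.
Ptprd mini-exon A, first exon: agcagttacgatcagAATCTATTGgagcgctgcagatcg
Ptprd mini-exon A, second exon: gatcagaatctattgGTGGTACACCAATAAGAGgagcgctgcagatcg
Ptprd mini-exon B: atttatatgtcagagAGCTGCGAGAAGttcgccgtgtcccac
Adgrl1 insert: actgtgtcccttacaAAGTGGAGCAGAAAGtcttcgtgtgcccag
Adgrl2 insert: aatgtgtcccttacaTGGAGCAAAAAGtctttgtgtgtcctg
Adgrl3 insert: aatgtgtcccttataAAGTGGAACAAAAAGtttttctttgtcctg
Tenm1 insert: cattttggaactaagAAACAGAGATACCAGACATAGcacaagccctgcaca
Tenm3 insert: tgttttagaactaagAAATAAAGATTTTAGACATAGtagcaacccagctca
Tenm4 insert: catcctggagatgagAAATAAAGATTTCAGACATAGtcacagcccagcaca
The inserts of Adgrl1 and Adgrl3 were identical at 13 of 15 positions. Those of Tenm3 and Tenm4 were identical at 20 of 21 positions, those of Tenm1 and Tenm3 at 16, and those of Tenm1 and Tenm4 at 17.

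The gene tables held 51888568 and 26776336 fragments on genes in replicates 1 and 2, of which the 49 genes took 223552 (0.431%) and 101558 (0.379%). Mean fragment length, read from the deposited effective lengths, was 164 and 124 bases. A separate quantification of the same libraries gave 134 and 98.3 bases. Markers of neurons (4 of 4), excitatory cortical neurons (4 of 4), GABAergic neurons (3 of 3), oligodendrocytes (4 of 4), oligodendrocyte precursors (2 of 2), astrocytes (4 of 4), microglia (3 of 3) and endothelium (3 of 3) were all detected, where detected means a TPM (a level per transcript length, scaled to a fixed total per library) of at least 1 in both libraries. Striatal markers (3 of 3, summing to 213 and 184 TPM) and choroid plexus markers (2 of 2, 58.3 and 44.8 TPM) were also detected. Of 3 cerebellar markers, Neurod1 was detected, at 7.06 and 6.53 TPM. Gabra6 and Barhl1 were at 0 in replicate 2 and at most 0.04 TPM in replicate 1. In bulk tissue, fewer cells of a type and less RNA per cell cannot be told apart.

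Nearly the whole adhesion repertoire was present in adult cortex. Of the 49 genes, 48 were detected, against 13800 of all 55536 genes (24.8%). The median level was 15.6 and 14.0 TPM over the 49 genes, against 12.7 and 11.7 TPM over all detected genes and 14.3 and 13.3 TPM over the 12442 detected protein coding genes. The levels ranged widely, with 4 genes at a mean of at least 100 TPM, 29 between 10 and 100, 15 between 1 and 10, and Slitrk6 below. Those 4 genes, Cadm3, Cadm1, Clstn1 and Ptprs, held 47.3% and 39.8% of the summed TPM of all 49. Within families, 35 pairs of genes were neighbours in the order of mean TPM, and the ranges over the libraries overlapped in 13 of them. The order was the same in both libraries in 24.

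**Figure D1:**
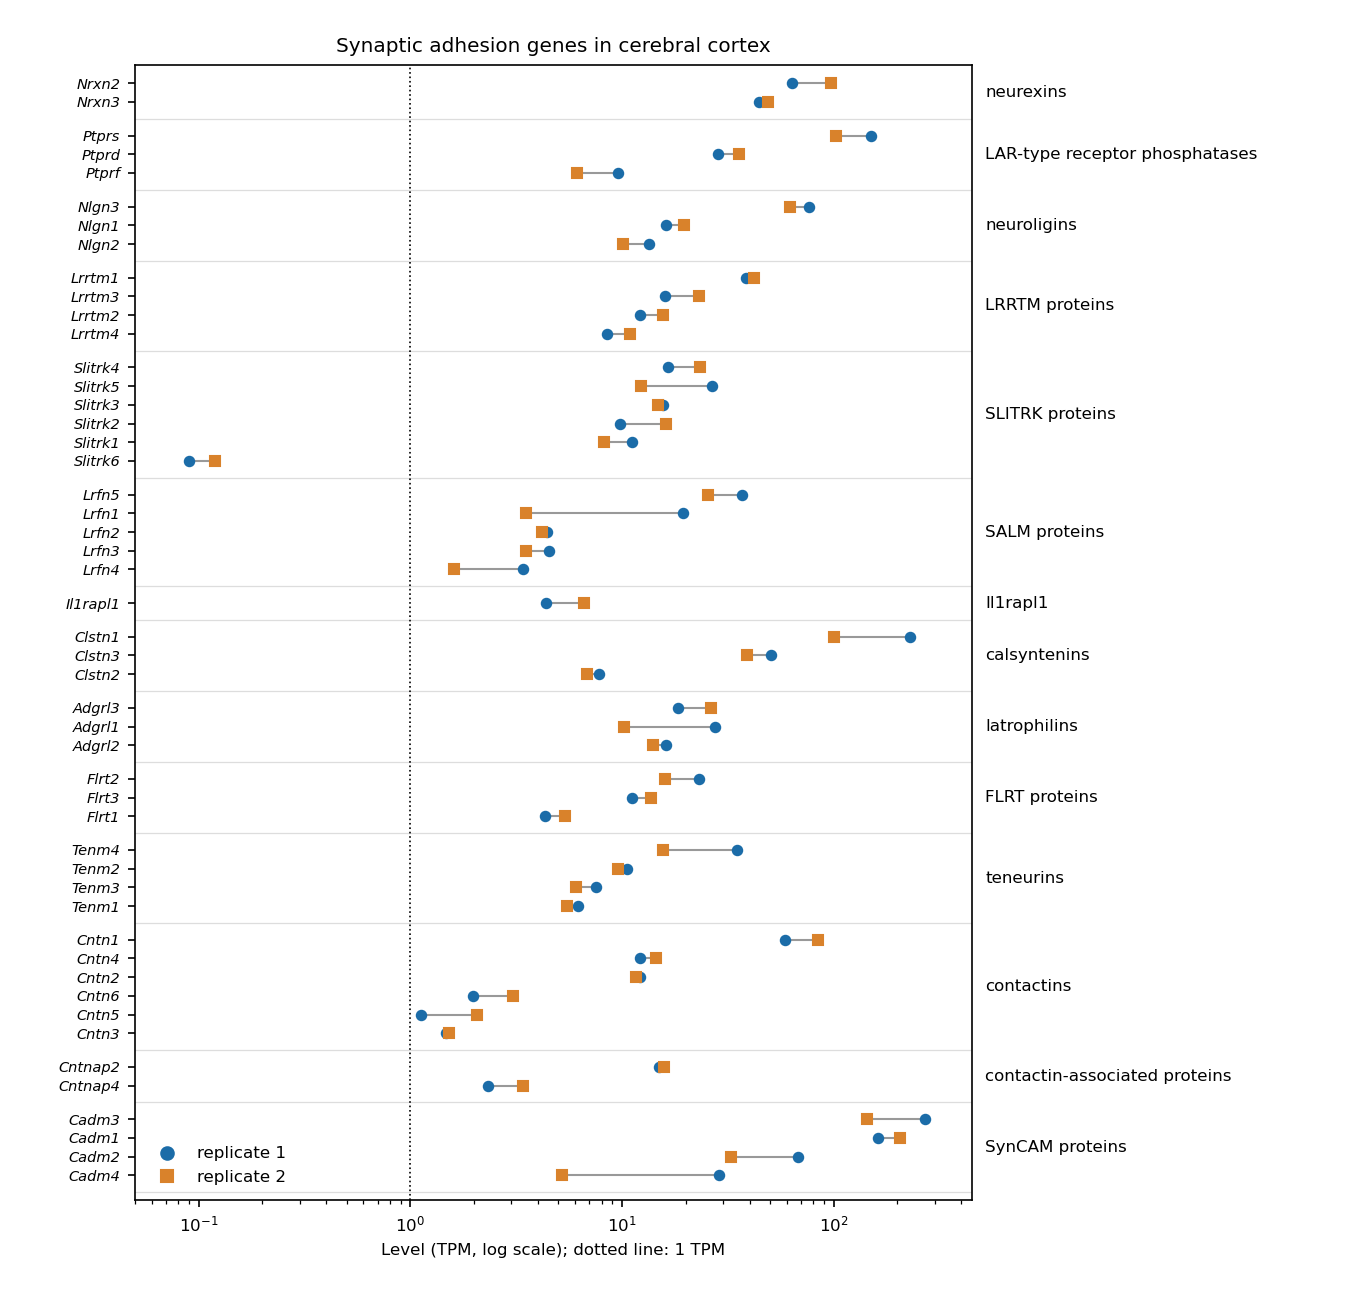
Level of each of the 49 genes in replicate 1 (circles) and replicate 2 (squares), in TPM on a log axis, grouped by family, with the dotted line at 1 TPM. All genes but Slitrk6 lie right of the line in both libraries, and the widest gaps are those of Lrfn1 and Cadm4.

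On the presynaptic side, Ptprs was the most abundant gene, at 150 and 102 TPM, and the neurexins and Ptprd lay below it. By a separate quantification of the same libraries, used again below, Nrxn2 was above Ptprs in replicate 2 (86.1 against 80.4 TPM). In coding transcripts alone Ptprs had 72.2 and 59.0 TPM. Ptprs (ENSMUSG00000013236.17, chr17:56412426-56476483) encodes the receptor phosphatase sigma, which also binds proteoglycans. Its relative Ptprd had 28.5 and 35.5 TPM and Ptprf 9.60 and 6.13 TPM, and none of these 3 ranges overlapped. Nrxn2 (ENSMUSG00000033768.17, chr19:6418731-6544169) had 63.7 and 96.8 TPM and Nrxn3 (ENSMUSG00000066392.11, chr12:88722876-90334935) had 44.3 and 49.0 TPM. Nrxn2 was the higher of the pair in both libraries, but much of its level came from a short noncoding transcript described below, and in coding transcripts Nrxn3 was higher, at 28.6 and 40.9 TPM against 24.3 and 30.3 TPM for Nrxn2.

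Neuroligins are postsynaptic neurexin receptors, of which Nlgn1 is known for excitatory and Nlgn2 for inhibitory synapses. Nlgn3, found at both kinds, was the highest at 76.2 and 62.5 TPM. Nlgn1 had 16.2 and 19.6 TPM and Nlgn2 had 13.4 and 10.1 TPM. The 3 ranges did not overlap.

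The leucine-rich repeat families each had most members at moderate levels. Among LRRTM proteins, which bind neurexins or proteoglycans, Lrrtm1 led with 38.5 and 41.9 TPM, followed by Lrrtm3 (15.9 and 23.1 TPM), Lrrtm2 (12.2 and 15.6 TPM) and Lrrtm4 (8.46 and 11.0 TPM). This order was the same in both libraries, with no overlap between neighbours. SLITRK proteins, partners of LAR-type phosphatases, had no such order. Slitrk4 was at 16.5 and 23.3 TPM, Slitrk5 at 26.5 and 12.3 TPM, Slitrk3 at 15.6 and 14.8 TPM, Slitrk2 at 9.81 and 16.1 TPM and Slitrk1 at 11.1 and 8.22 TPM, and each neighbouring pair of these 5 overlapped. Slitrk6, known from the inner ear, stood apart at 0.09 and 0.12 TPM, on 15 and 10 fragments.

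SALM proteins (the Lrfn genes) bind LAR-type phosphatases or one another. Lrfn5 was the highest, at 36.7 and 25.6 TPM. Lrfn1 differed most between the libraries, at 19.4 TPM in replicate 1 and 3.52 TPM in replicate 2, so that its range covered those of Lrfn2 (4.43 and 4.17 TPM) and Lrfn3 (4.53 and 3.53 TPM). Lrfn4 was the lowest at 3.41 and 1.60 TPM. Il1rapl1, an interleukin-1 receptor relative that binds Ptprd, had 4.35 and 6.60 TPM. Calsyntenins, which act in axonal transport and bind neurexins, were led by Clstn1 at 228 and 100.1 TPM, above Clstn3 (50.5 and 39.0 TPM) and Clstn2 (7.76 and 6.86 TPM) without overlap.

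In the latrophilin, FLRT and teneurin set, the latrophilins Adgrl3 (18.5 and 26.2 TPM), Adgrl1 (27.5 and 10.2 TPM) and Adgrl2 (16.1 and 14.0 TPM) overlapped and changed order between the libraries. Among FLRT proteins, Flrt2 had 23.0 and 16.0 TPM, Flrt3 11.1 and 13.6 TPM, and Flrt1 4.32 and 5.40 TPM, with no overlap. Tenm4 led the teneurins at 34.8 and 15.7 TPM, followed by Tenm2 (10.6 and 9.59 TPM), Tenm3 (7.54 and 6.09 TPM) and Tenm1 (6.16 and 5.48 TPM), of which Tenm3 and Tenm1 overlapped.

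The immunoglobulin-type genes held the highest and some of the lowest levels. SynCAMs summed to 457 ± 98.7 TPM (SD, n = 2), the largest family sum of the 14, with Cadm3 at 269 and 144 TPM, Cadm1 at 162 and 206 TPM, Cadm2 at 68.1 and 32.6 TPM and Cadm4 at 28.7 and 5.20 TPM. Cadm3 and Cadm1 overlapped and swapped places between the libraries. Cntn1, a contactin of axons and oligodendrocyte lineage cells, had 58.9 and 84.5 TPM, the highest of the contactins in both libraries. Cntn4 (12.1 and 14.5 TPM) and Cntn2 (12.2 and 11.7 TPM) overlapped, and Cntn6 (1.98 and 3.06 TPM), Cntn5 (1.12 and 2.07 TPM) and Cntn3 (1.47 and 1.52 TPM) were the lowest contactins, with neighbouring ranges that overlapped. Cntnap2, a partner of Cntn2 beside the nodes of myelinated axons, had 14.95 and 15.73 TPM, and its relative Cntnap4 had 2.33 and 3.41 TPM.

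The other family sums were 216 ± 99.4 TPM for calsyntenins, 166 ± 31.0 for LAR-type phosphatases, 127 ± 26.7 for neurexins, 98.9 ± 9.62 for neuroligins, 83.3 ± 11.6 for LRRTM proteins, 77.3 ± 3.39 for SLITRK proteins, 56.3 ± 8.29 for latrophilins, 53.4 ± 21.3 for SALM proteins, 47.9 ± 15.7 for teneurins, 36.7 ± 2.38 for FLRT proteins and 18.2 ± 1.32 for the contactin-associated proteins Cntnap2 and Cntnap4, without Cntnap1, which was not among the 49 genes (SD, n = 2 throughout). Contactins summed to 87.8 TPM in replicate 1 and 117 TPM in replicate 2. The sums of latrophilins and SALM proteins differed by less than the SD of either. The deposited second transcript tables, a separate quantification of the same libraries, put each of the 49 genes within 1.5-fold of its gene table level in both libraries.

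A trait shared by many of these genes that had no part in their choice was size in the genome. The median span from start to end was 125 kb over the 49 genes, against 25.0 kb over detected protein coding genes, and 25 of them spanned over 100 kb, against 15.5% of detected protein coding genes. Over 1000 kb were 7 of the 49, against 0.410% of detected protein coding genes. Those were Ptprd (2271 kb), Cntnap2 (2245 kb), Nrxn3 (1612 kb), Il1rapl1 (1375 kb), Cntn5 (1244 kb), Tenm2 (1229 kb) and Cntn4 (1022 kb). Their levels ran from 1.12 TPM (Cntn5, replicate 1) to 49.0 TPM (Nrxn3, replicate 2), so the group covered low and high genes alike. The 49 genes lay on 19 chromosomes, with 5 on chromosome X.

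A gene's TPM is the sum over its transcripts, and for several adhesion genes most of it was not in protein coding ones. The median gene had 99.7% and 99.8% of its TPM in protein coding transcripts, against 97.8% and 98.1% over detected protein coding genes. Summed over the 49 genes the share was 75.3% and 78.2%. It was under 50% for 6 of the 49 genes in replicate 1 and 4 of the 49 in replicate 2, near the 9.03% and 10.2% of detected protein coding genes. These counts therefore say nothing particular to adhesion genes. Cadm3, Nrxn2, Adgrl3 and Tenm1 were under 50% in both libraries and in both quantifications, and Ptprd (48.1% and 61.9%) and Ptprs (48.2% and 57.7%) lay on both sides. At the other end, 30 of the 49 genes had at least 95% in both libraries.

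**Figure D2:**
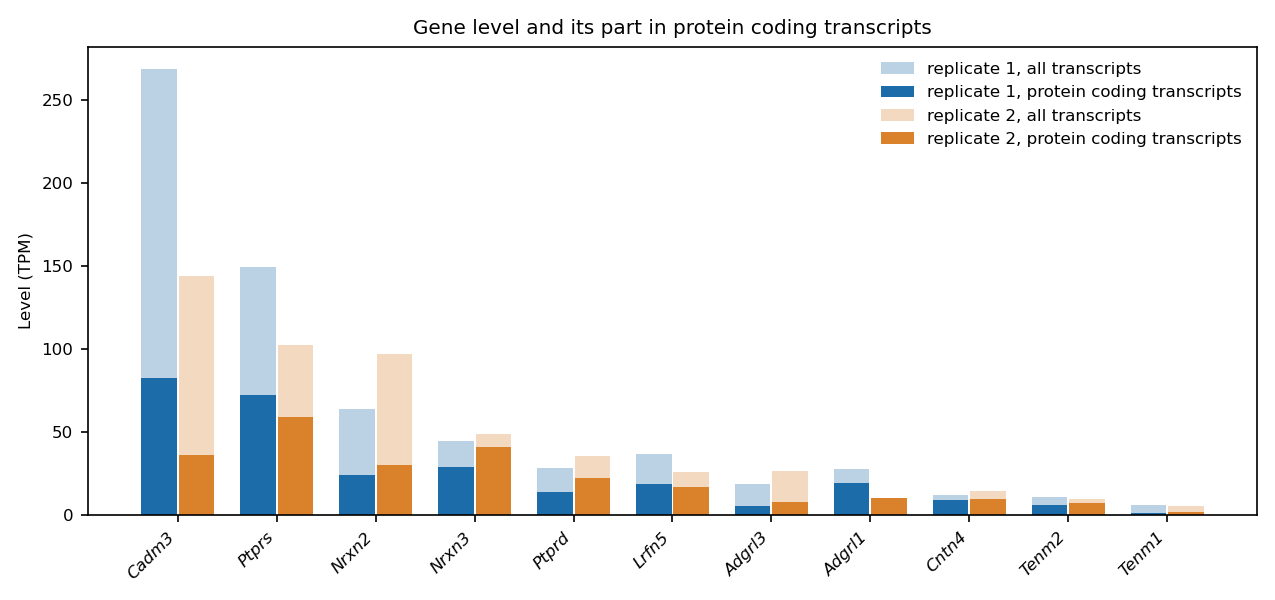
Level of the 11 genes with under 75% of their TPM in protein coding transcripts in either library, in TPM, with replicate 1 left of replicate 2. Pale bars show all transcripts and dark bars the protein coding part. In Cadm3 the coding part was 82.7 and 36.1 TPM of 269 and 144 TPM.

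In Nrxn2 the leading transcript was Nrxn2-213, a processed transcript (no coding sequence annotated) of 576 bases in 3 exons. It held 60.7% and 66.1% of the gene's TPM but 640 and 591 fragments, 13.2% and 20.6% of the gene's. All 576 of its bases also lie in exons of coding transcripts, so fragments from these exons could be given to either. The libraries stood further apart in the gene's TPM (63.7 and 96.8) than in its 4845 and 2869 fragments, where the log2 ratio of replicate 1 over replicate 2 at scaled library sizes was -0.07 (95% interval -0.14 to -0.00).

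Cadm3, Tenm1 and Tenm4 had a short leading transcript too. Cadm3-203, an annotated retained intron of 774 bases, held 69.0% and 74.5% of the gene's TPM on 24.5% and 27.6% of its fragments, and 755 of its bases are shared with coding transcripts. Cadm3 (ENSMUSG00000005338.13, chr1:173333258-173367695) also shares 361 exon bases on the same strand with Ackr1, a chemokine receptor gene at 10.5 and 15.1 TPM. Tenm1-204, a processed transcript of 1143 bases that shares none with coding transcripts, held 73.1% and 57.6% of Tenm1, leaving 1.35 and 2.03 TPM in coding transcripts. Tenm4-209 is annotated as coding but is 704 bases long with 303 coding bases, and it held 68.2% and 59.8% of Tenm4. The full Tenm4-203, of 8388 coding bases, had 3.78 and 4.2 TPM, close in the libraries although the gene had 34.8 and 15.7 TPM. Levels of short transcripts depend on the fragment length, which differed between the libraries, and the part this played was not tested.

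Neurexin genes make a long alpha form, with many extracellular domains, and a short beta form from an internal promoter. Split by coding length at 3000 bases, Nrxn3 had 37.2% and 39.0% of its coding TPM in 3 long transcripts (10.7 and 16.0 TPM) and 62.8% and 61.0% in 2 short ones (18 and 24.9 TPM). The 2 libraries lay within 2 percentage points of each other. Nrxn2 had 35.9% and 9.90% in 6 long transcripts (8.73 and 3.0 TPM) and 64.1% and 90.1% in 2 short ones (15.6 and 27.3 TPM). In both genes the short form was the more abundant in each library, but for Nrxn2 the long form differed between the libraries, on 2074 and 354 fragments. The second transcript tables gave 35.1% and 9.26% for the long form of Nrxn2, and 33.6% and 37.9% for that of Nrxn3.

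Over the 44 genes with more than 1 annotated transcript, the same transcript led in both libraries in 33 and a different one in 11. The largest swaps were in Nlgn2 and Cadm2. Nlgn2-202 held 98.8% of Nlgn2 (ENSMUSG00000051790.15, chr11:69823122-69837784) in replicate 1 and 24.9% in replicate 2, while Nlgn2-201 held 0.19% and 73.3%. These transcripts have the same coding length (2508 bases), share 4831 bases and differ by 737 and 172 bases of their own, so the swap is between transcripts of equal coding length. In Cadm2 (chr16:66655421-67620908), Cadm2-203 held 70.6% and 16.0% and Cadm2-201 held 18.5% and 56.4%. Cadm2-201 contains all 2768 bases of Cadm2-203 and 6796 more, among them a 27-base coding exon. The second transcript tables gave like values, 99.3% and 33.3% for Nlgn2-202 and 71.5% and 13.5% for Cadm2-203.

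**Figure D3:**
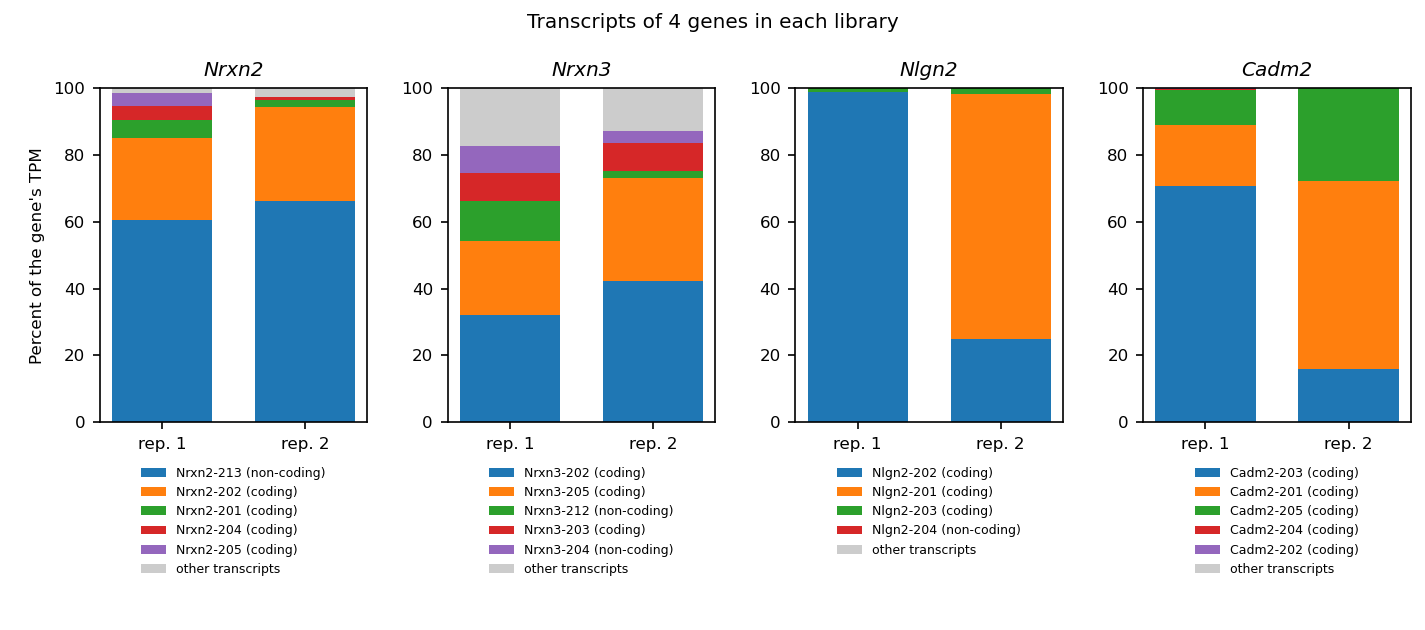
Percent of the gene's TPM in each of the 5 leading transcripts (fewer where the gene has fewer) of Nrxn2, Nrxn3, Nlgn2 and Cadm2, with replicate 1 left of replicate 2 in each panel. The noncoding Nrxn2-213 leads in both libraries, whereas the leading transcripts of Nlgn2 and Cadm2 change places.

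Inclusion of a cassette exon was taken as the percent of TPM in transcripts that include it, out of those that include or skip it. Transcripts not annotated as coding were counted too. The transcripts compared also differ at other exons and at their ends, combinations that are not annotated get no share, and the rule (wholly coding exons of at most 90 bases and a multiple of 3) was chosen after the transcript tables had been seen. It found 50 exons in 17 of the genes. Of these, 22 were over 50% included in both libraries and both quantifications, 18 were under 50% in all 4 estimates, and 10 lay on both sides. The 4 estimates lay within 10 percentage points for 29 exons.

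Splice site 4 of Nrxn3, shown above, was mostly included, at 84.3% and 87.1%. Inclusion is the form known to favour cerebellins over some neuroligin and LRRTM partners. For the Ptprd exons, inclusion was 82.2% and 90.1% for the first exon of mini-exon A, 77.6% and 80.7% for the second, and 80.4% and 80.7% for mini-exon B. Most Ptprd transcripts that could be scored carried each insert, in both libraries. The including transcripts of the 9-base exon summed to 6.84 and 9.42 TPM, out of 28.5 and 35.5 TPM for the gene.

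Neuroligin site A differed by gene. The Nlgn2 exon was included at 99% and 98.1%, the Nlgn1 exon at 45.1% and 54.1%, and the exons of Nlgn3 at 4.26% and 4.74% (first) and 49.1% and 62.2% (second). Nlgn2 was thus near full inclusion and the first Nlgn3 exon near full skipping in both libraries, with the others between. A single transcript of Nlgn2 skips the exon, and it is only 784 bases long. The one transcript that skips the second Nlgn3 exon is Nlgn3-203, of 1852 bases.

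Latrophilin inserts differed by gene as well. The Adgrl1 insert was included at 10.2% and 3.33%, the Adgrl2 insert at 66.1% and 44.4%, and the Adgrl3 insert at 51.7% and 48.6%. All the skipping TPM behind these Adgrl3 values lay in transcripts not annotated as coding (Adgrl3-226, Adgrl3-231 and Adgrl3-232). The Adgrl3 values therefore do not show a split among coding transcripts. The Adgrl1 value counts the noncoding Adgrl1-206 (8.2 and 0 TPM) as skipping. By the second transcript tables the Adgrl2 insert stood at 72.7% and 62.2%, over 50% in both libraries. For Adgrl3 those tables gave 76.1% and 81.1%, so that its value depends on the quantification more than on the library. Adgrl1 was the lowest of the 3 in each library and in both quantifications. The teneurin insert was mostly included, at 100% and 100% in Tenm1, 89.9% and 97.2% in Tenm3, and 79.6% and 89.2% in Tenm4. Tenm1 coding transcripts stood at 1.35 and 2.03 TPM, a low level for such an estimate.

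**Figure D4:**
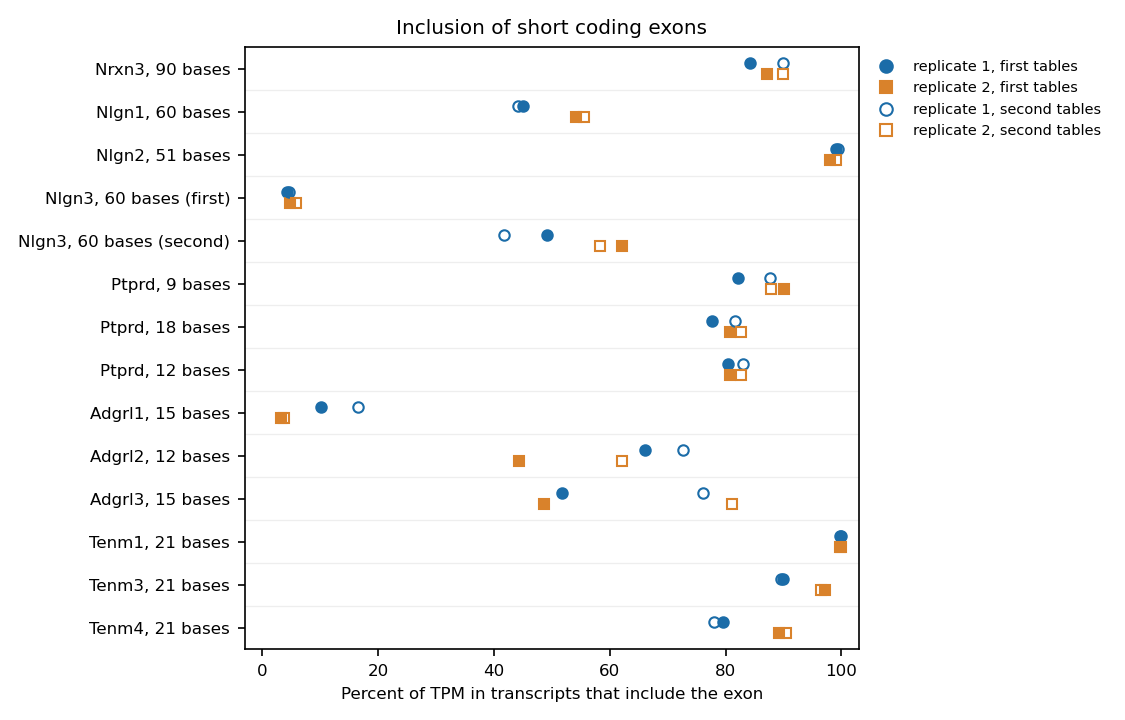
Percent of TPM in transcripts that include each of the 14 cassette exons printed above, for replicate 1 (circles) and replicate 2 (squares), by the first transcript tables (filled) and the second (open). Nlgn2 lies near 100%, the first Nlgn3 exon and Adgrl1 lie at the left, and the Adgrl3 insert separates by quantification.

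The libraries were then compared gene by gene, to size the spread behind these levels. The difference is the log2 ratio of CPM (counts scaled by library size) plus 0.5, replicate 1 over replicate 2, at TMM effective library sizes. A gene was called when an exact two-sided binomial test had a Benjamini-Hochberg adjusted p under 0.05 over all 14656 genes tested and the ratio was at least 1.5-fold. This sets 1 library against 1 and covers counting error only. Of 48 adhesion genes tested, 8 were called higher in replicate 1 (16.7%), against a background of 17.2% of all genes, and 1 was called lower (2.08%), against 3.22% (20.5% in either direction). These shares are near the background, so the counts at this threshold say nothing particular to adhesion genes. The median log2 ratio was 0.05 over the 48 and 0.03 over all genes, and the median size of the ratio without sign was 0.38 and 0.25.

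Scaling by total counts in place of TMM shifted the median of all genes to -0.09 and gave 7 adhesion genes higher (14.6%) and 5 lower (10.4%), against 14.1% and 5.67% of all genes (19.8% in either direction). The split over all genes was then 2065 higher and 830 lower, against 2528 and 472 with TMM. By the counting test with no fold threshold, 21 adhesion genes were higher (43.8%) and 20 lower (41.7%). Over all genes the shares were 36.3% and 26.0% (62.3% in either direction), below those of the adhesion genes. The reason was not tested. The second transcript tables gave 8 higher (16.7%) and 1 lower (2.08%), against 16.0% and 3.53% of all genes (19.5% in either direction).

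The postsynaptic Lrfn1 and the SynCAM Cadm4 differed most. Lrfn1 (ENSMUSG00000030600.15, chr7:28451980-28468242) had 1816 fragments in replicate 1 and 142 in replicate 2, a log2 ratio of 2.73 (95% interval 2.60 to 3.11, adjusted p = 7.61e-195 by the exact binomial test). Cadm4 (ENSMUSG00000054793.8, chr7:24482023-24504539), a SynCAM found on myelinating glia and neurons, had 2300 and 216 fragments, a log2 ratio of 2.51 (2.38 to 2.79, adjusted p = 6.78e-223, exact binomial test). The other calls were Clstn1 (35290 and 8663 fragments, log2 ratio 1.20), Slitrk5 (4421 and 1101, 1.17), Lrfn4 (382 and 91, 1.13), Adgrl1 (6141 and 1661, 1.05), Cadm3 (18587 and 5151, 1.02) and Nlgn2 (2884 and 1020, 0.67). Slitrk2, with 2859 and 2466 fragments, was the gene called lower in replicate 1, at a log2 ratio of -0.61 (-0.69 to -0.53, adjusted p = 7.86e-52, exact binomial test). Just short of the fold were Slitrk1 (0.57), Cntn5 (-0.55) and Ptprs (0.53). Lrrtm1 (0.01) and Tenm3 (0.01) had the smallest ratios.

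GC content of the transcripts moved with these ratios. The 8 genes called higher had a GC content of 51.3% to 65.5%, and Slitrk2 had 38.4%. The 24 genes at 50% GC or more had a median log2 ratio of 0.45 and the 24 below it of -0.26, where all genes had 0.14 and -0.06. Spearman's rho between ratio and GC content was 0.731 over the 48 genes and 0.307 over 14645 genes, as a description of genes measured in the same pair of libraries. Over the 48 genes rho was still 0.487 for ratios corrected for both GC content and length. With the trends on GC content and length removed over all genes, 6 adhesion genes remained past the thresholds as higher (12.5%, background 15.7%) and 0 as lower (background 3.0%, 18.7% in either direction), the calls lost being Nlgn2 (0.26), Lrfn4 (0.37) and Slitrk2 (-0.47). Lrfn1 (2.18) and Cadm4 (2.21) were still past them. Markers of excitatory cortical neurons moved in part with these genes, with Slc17a7 (82.7 and 37.2 TPM, log2 ratio 1.29) and Tbr1 (22.3 and 7.70 TPM, 1.69) called higher and Neurod6 (-0.06) not called. The list summed to 143 and 88.7 TPM, and none of its markers was at 0. The parts of GC content, fragment length and cell makeup in the differences were not tested.

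**Figure D5:**
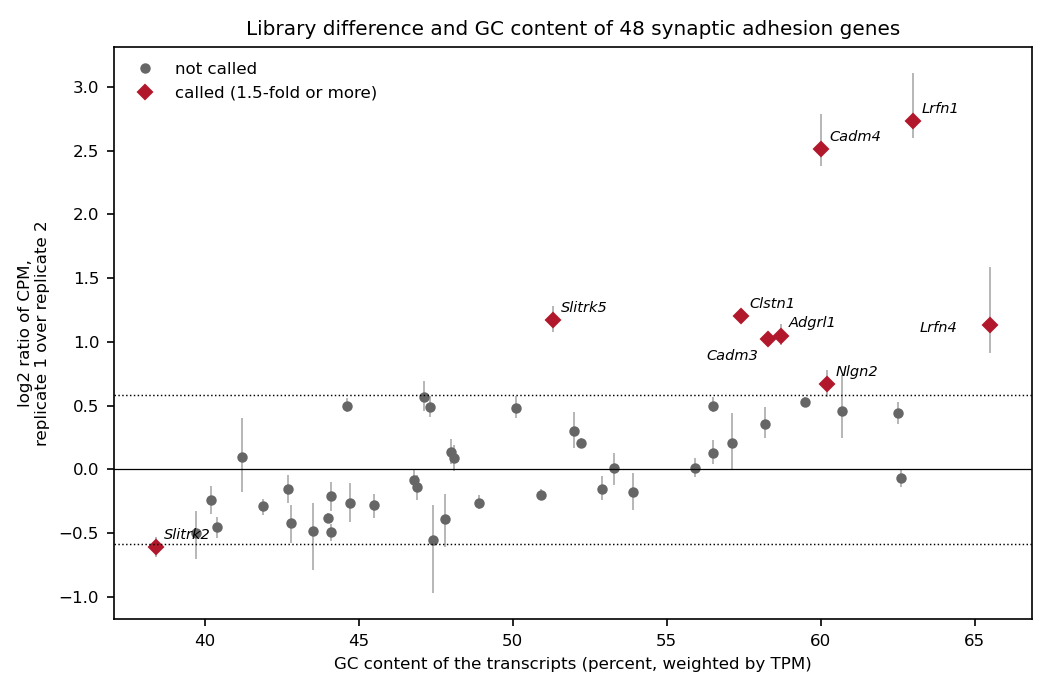
Log2 ratio of CPM (replicate 1 over replicate 2) against GC content in percent for the 48 genes tested, with 95% counting intervals as bars, calls as diamonds and dotted lines at 1.5-fold. The genes called higher lie at 51.3% to 65.5% GC and Slitrk2, called lower, at 38.4%.

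Genes that act with these adhesion molecules were described from 4 lists, with ranks by the mean TPM of the libraries. Of 21 secreted organisers, which bridge or tune adhesion pairs, 18 were detected, and 6 of 20 tested (30.0%) were called higher in replicate 1 and 0 lower, against the background of 17.2% and 3.22%. The highest was Sparcl1 (hevin, an astrocyte protein) at 1090 and 1048 TPM, and the lowest was Cbln3 at 0.09 and 0.05 TPM. Those called were Nptxr (166 and 40.1 TPM), the neuronal pentraxin receptor, second in the list by the mean but not in replicate 2, with the pentraxins Nptx1 (110 and 80.8 TPM) and Nptx2 (11.9 and 4.79 TPM), C1ql1 (10.7 and 1.20 TPM), a C1q-like ligand, and the neurexophilins Nxph3 (3.36 and 1.31 TPM) and Nxph4 (2.52 and 0.82 TPM).

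Of 17 regulators in cis and other ligands, 16 were detected, 5 were called higher (29.4%) and 1 lower, against 17.2% and 3.22% of all genes. Adam22, a receptor for the secreted Lgi proteins, was the highest at 106 and 131 TPM, and Mdga1, which blocks neuroligins in cis, the lowest at 1.03 and 0.97 TPM. The calls were Adgrb1 (76.9 and 17.2 TPM), a brain adhesion receptor that was second by the mean but not in replicate 2, Ntng2 (24.4 and 10.8 TPM), a netrin-G, Lrrc4b (9.25 and 5.08 TPM), a ligand of LAR-type phosphatases, Adam23 (19.2 and 12.6 TPM), and Unc5b (4.62 and 1.36 TPM), an FLRT partner, with Unc5d (3.03 and 5.08 TPM) lower.

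All 27 intracellular partners were detected, with 6 called higher (22.2%) and 0 lower, near the 17.2% and 3.22% of all genes. Lin7b, part of a neurexin-binding scaffold, was the highest at 216 and 222 TPM and the liprin Ppfia1 the lowest by the mean, at 3.47 and 3.44 TPM, with Shank3 below it in replicate 2. Second by the mean, though not in replicate 1, was Apba2 (135 and 89.7 TPM), an adaptor of the same scaffold family. The calls were the postsynaptic scaffolds Shank1 (152 and 70.2 TPM) and Shank3 (9.58 and 2.88 TPM), the synapsin Syn1 (142 and 64.5 TPM), Epb41l1 (86.5 and 41.7 TPM), Apba1 (24.3 and 12.6 TPM) and the liprin Ppfia3 (26.2 and 8.98 TPM).

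All 18 other neural adhesion genes were detected, with 4 called higher (22.2%) and 1 lower, near the 17.2% and 3.22% of all genes. Thy1 (242 and 275 TPM, log2 ratio of counts 0.66) and Ntm (169 and 189 TPM) were the highest and Cntnap1 (16.1 and 9.90 TPM) the lowest by the mean, though in neither library alone. Thy1, Cntnap1, Nfasc (29.8 and 16.4 TPM) and Ncam2 (18.1 and 9.21 TPM) were the genes called higher, and Negr1 (25.1 and 41.6 TPM) the one called lower. Thy1 had a higher CPM in replicate 1 but a lower TPM, so the scales differ in direction for that gene. The same held for 4 of the 48 adhesion genes tested.

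Exons of 10 of the 49 genes overlap those of another gene with a mean TPM of at least 1 (Nrxn2, Ptprd, Nlgn1, Lrrtm2, Adgrl1, Adgrl2, Tenm1, Tenm3, Cntn5 and Cadm3), and since no source used here states the use of strand, reads of such pairs may be split between them. The overlap was on opposite strands for all but Cadm3. Lrrtm2 shares 95 exon bases with Ctnna1 (27.2 and 33.5 TPM) and Tenm1 shares 1465 with Sh2d1a (1.14 and 1.98 TPM), and their levels are uncertain to that extent.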

How the data were processed

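Poly(A)+ RNA-seq of mouse left cerebral cortex was deposited as 1 group of 2 libraries on mm10 with GENCODE M21, per the deposited notes. The gene tables and first transcript tables hold expected counts, TPM and the percent of a gene's TPM per transcript, all as deposited by the authors, per the file headers. The second transcript tables hold the authors' estimated counts and TPM from a separate quantification, per the file headers. Tool names and strand settings were not given in the sources used.

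Depth was 51888568 and 26776336 fragments on genes by the gene tables. The second set of tables held 76100930 and 46367810. Rows naming no gene held 1.73e-05 and 3.35e-05 percent and were left out. Expected counts were rounded and compared by a two-sided exact binomial test at effective sizes from TMM (edgeR 4.0.16, R 4.3.3), with Benjamini-Hochberg adjustment over genes whose mean CPM reached 1, since 1 library per side leaves edgeR's quasi-likelihood test no residual degrees of freedom. Log2 ratios used CPM plus 0.5, and 95% Clopper-Pearson intervals, without pseudocount, cover counting error only, since no molecular identifiers are named. Trends on GC content and length were subtracted by lowess (statsmodels 0.14.6, fraction 0.3). Alternatives were total-count scaling, DESeq2 1.42.0 size factors, pseudocounts of 0.1 and 2, other filters and folds, and the second tables. The test was checked on simulated data that held counting error alone. That check says nothing of spread beyond counting error. Exons and overlaps came from the GENCODE M21 annotation and transcripts.

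All 49 genes could be named by family, and from each list of other genes the 2 highest and the lowest by mean TPM and any called. The genes and lists were chosen with earlier results of these data known. Some values of single genes and exons are not reported here.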

Additional observations from a re-analysis of the deposited data

How the results depend on the processing

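The median level of the 49 genes was 14.8 TPM, 14.0 to 15.6 TPM in single libraries, and 12.2 TPM by the second transcript tables. Single libraries gave 48 detected genes each, and a threshold of 5 TPM gave 38. The median log2 ratio turned to -0.08 with total-count scaling and -0.07 with GC and length trends removed. Adhesion genes called lower numbered 5 with total-count scaling, 2 with a pseudocount of 0.1, 0 at 2-fold and 0 with trends removed, against 1. All genes called lower numbered 830 with total-count scaling, 88 at 2-fold, 258 with a mean CPM filter of 5 and 252 with a pseudocount of 2, and those called higher 1288 at 2-fold. Counts at other pseudocounts were added after the data had been seen. The counting test with no fold threshold gave 21 adhesion genes higher and 20 lower (43.8% and 41.7%, against 36.3% and 26.0% of all genes, 5318 and 3807). Single log2 ratios changed sign for Lrrtm1 (-0.11), Adgrl2 (-0.04), Tenm3 (-0.12) and Cntn3 (-0.02) with total-count scaling, Tenm3 (-0.00) with DESeq2 size factors, Flrt1 (0.29) with the second tables, and Lrrtm1 (-0.10), Tenm3 (-0.09), Tenm4 (-0.10) and Cntn2 (-0.06) with trends removed. The cause was not tested. The median coding share was 99.1% by the second tables. Inclusion of 50 exons and the long neurexin forms, set against the second tables after the data had been seen, stayed within the spread between libraries in 30 of 52 values. No paired analysis was possible because the labels give 1 group. Depth limited low genes such as Slitrk6, at 15 and 10 fragments.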

Other observations

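Cassette exons other than those printed above were also measured, some with values far apart between the libraries. In Cadm1, a SynCAM with a variable stalk next to its membrane span, an 84-base exon was included at 52.9% and 38.5% and a 33-base exon at 55.1% and 42.0%, whereas a 54-base exon stood at 2.62% and 2.78%. A 30-base exon of Clstn1 was included at 18.2% and 2.34%, and an 18-base exon of Ptprf at 42.4% and 1.31%. Both were higher in replicate 1, and the second transcript tables gave 21.4% and 2.50% for Clstn1 and 43.9% and 1.45% for Ptprf. The including Ptprf transcript rested on 123 and 1 fragments. For Clstn1, the including transcripts were the coding Clstn1-201 (22.9 and 0.07 TPM) and Clstn1-203, a processed transcript of 358 bases (18.6 and 2.27 TPM). Clstn1-203 rested on 147 and 11 fragments, and it held nearly all of the including TPM in replicate 2. The 27-base exon of Cadm2 was included at 20.6% and 77.9%, under 50% in replicate 1 and over 50% in replicate 2, whereas the 84-base and 33-base exons of Cadm1 lay on the opposite sides. By the second transcript tables these Cadm1 exons stood at 59.3% and 49.8%, and at 62.2% and 54.4%.

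In Ptprs, a 12-base exon was included at 85.0% and 63.7%. In Ptprd a further 12-base exon, other than mini-exon B, was at 9.92% and 8.96%. In Tenm3 a 27-base exon was included at 89.9% and 97.2%, and in Tenm4 an exon of the same length at 75.8% and 79.3%. None of these differences was tested.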
